A study of Mus musculus with 6 samples.

Results

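This account covers the FoxO transcription factor genes Foxo1, Foxo3 and Foxo4, the p53 gene Trp53, the antiproliferative genes Btg1, Btg2, Tob1 and Tob2, and the G-type cyclin genes Ccng1 and Ccng2, compared between activated and quiescent neural stem cells sorted from the ventricular-subventricular zone of adult mice. The members are a named list of 10 genes, and a probe set was taken where the platform annotation paired it with exactly 1 gene and that gene was on the list. This gave 26 probe sets for 9 genes, out of 18193 genes with such a probe set on the array. No probe set was paired with Trp53, whose level is not analysed here. One further probe set, paired with Foxo3 and a second gene, was left out by the same rule.

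Activated cells were hybridised to 3 one-colour arrays and quiescent cells to 3. The labels call them biological replicates but do not say whether animals were pooled, nor give strain or age, so p-values measure only the spread between these samples. Activated cells carried GFP under the GFAP promoter, CD133 on their surface and EGFR, and lacked CD24. Quiescent cells carried the same GFP and CD133 and lacked CD24, and their label does not mention EGFR. Both groups therefore depend on the GFAP promoter that drives the reporter. Each value is a MAS5 signal on the log2 scale. A difference is the activated mean minus the quiescent mean, with its SE from limma, and an adjusted p is limma's after Benjamini-Hochberg adjustment over all features tested. Precision is limited by having 3 arrays in a group.

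FoxO factors are transcription factors that Akt phosphorylates and keeps out of the nucleus when insulin or growth factor signalling is high. In the nucleus they switch on genes of cell cycle arrest, stress resistance and metabolism, and FoxO factors are known to preserve adult neural stem cells from early exhaustion. p53 is a transcription factor that responds to DNA damage and restrains proliferation. Its targets include Btg2 and Ccng1, while Ccng2 is a known FoxO target. BTG and TOB proteins slow cell division and bind the CCR4-NOT deadenylase, which shortens mRNA tails. Cyclins G bind subunits of the phosphatase PP2A, and Ccng2 is linked to cell cycle arrest.

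The 300 bases around the start of a gene (250 before and 50 after) were taken from RefSeq on GRCm38.p6 for 8 of the 9 measured genes. They are printed for 4 genes: the pair of members that rose, because their differences carry the main finding, and the paralog of each, which did not rise. Btg2 lies on the minus strand at chr1:134079106-134079405, Btg1 on the plus strand at chr10:96616751-96617050, Ccng2 on the plus strand at chr5:93267323-93267622 and Ccng1 on the minus strand at chr11:40755237-40755536. Capitals mark the cyclic AMP response element in Btg2, the FoxO motif in Btg1 and a single p53 decamer, not a whole p53 binding site, in Ccng1.
Btg2: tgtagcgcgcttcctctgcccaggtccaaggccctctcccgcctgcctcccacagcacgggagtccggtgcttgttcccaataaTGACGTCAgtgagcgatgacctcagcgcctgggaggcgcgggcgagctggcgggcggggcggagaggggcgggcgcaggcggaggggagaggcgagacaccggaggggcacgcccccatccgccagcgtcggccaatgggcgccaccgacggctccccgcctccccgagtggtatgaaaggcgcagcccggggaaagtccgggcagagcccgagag
Btg1: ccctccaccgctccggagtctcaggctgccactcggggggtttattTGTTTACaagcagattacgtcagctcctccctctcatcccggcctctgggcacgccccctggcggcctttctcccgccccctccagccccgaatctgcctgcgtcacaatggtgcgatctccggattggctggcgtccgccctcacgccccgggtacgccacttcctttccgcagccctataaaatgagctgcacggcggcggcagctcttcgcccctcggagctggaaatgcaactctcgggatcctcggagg
Ccng2: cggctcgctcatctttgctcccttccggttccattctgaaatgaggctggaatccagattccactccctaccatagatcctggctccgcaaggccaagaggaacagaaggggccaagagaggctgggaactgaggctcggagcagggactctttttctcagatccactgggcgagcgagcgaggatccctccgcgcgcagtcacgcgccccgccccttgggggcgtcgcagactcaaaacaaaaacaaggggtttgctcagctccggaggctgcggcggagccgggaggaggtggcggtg
Ccng1: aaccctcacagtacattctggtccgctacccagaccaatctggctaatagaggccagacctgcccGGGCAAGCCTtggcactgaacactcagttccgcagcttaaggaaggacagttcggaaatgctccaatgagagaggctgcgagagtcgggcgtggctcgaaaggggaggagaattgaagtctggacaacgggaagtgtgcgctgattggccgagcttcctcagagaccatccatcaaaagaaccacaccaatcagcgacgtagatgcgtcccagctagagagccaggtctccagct

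The FoxO motif GTAAACA, searched on both strands, was present in 1 of the 8 member windows, that of Btg1, at position -204 from the start and on the opposite strand. It was present in 3.65% of 32817 promoters of the same length, the set called all promoters below. That set leaves out the promoters of chr18. The p53 motif searched was the consensus of a single decamer, which is not a whole p53 binding site. It was present in 1 of 8, that of Ccng1, at position -185, and in 8.36% of all promoters. The cyclic AMP response element TGACGTCA was present in 1 of 8, that of Btg2, at position -166, and in 1.79% of all promoters. The CArG box, bound by serum response factor, was present in 0 of 8 and in 1.63% of all promoters. The last motif pair was chosen after the Btg2 values were seen. Both strands were searched throughout, no window held more than 1 match, and a match describes letters only.

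Of the 9 measured genes, 2 were higher and 3 lower in activated cells at an adjusted p under 0.05, and 4 did not pass. Btg2 and Ccng2 rose, and Foxo1, Tob2 and Ccng1 fell. Over all 11576 tested genes 34.9% passed, made up of 17.3% higher and 17.6% lower. The arrays of the groups did not overlap for 5 of the 9 genes, against 50.7% of all tested genes. With so few members and so many genes changed, these counts are a description of the members and not a result about the list. At the level of single probe sets, 24 of the 26 were bright enough to be tested, 3 rose and 4 fell. The background there was 31.9% of 22608 probe sets, with 15.6% higher and 16.3% lower. The arrays did not overlap at 14 of the 24 member probe sets, against 48.1% of all tested probe sets.

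**Figure D1:**
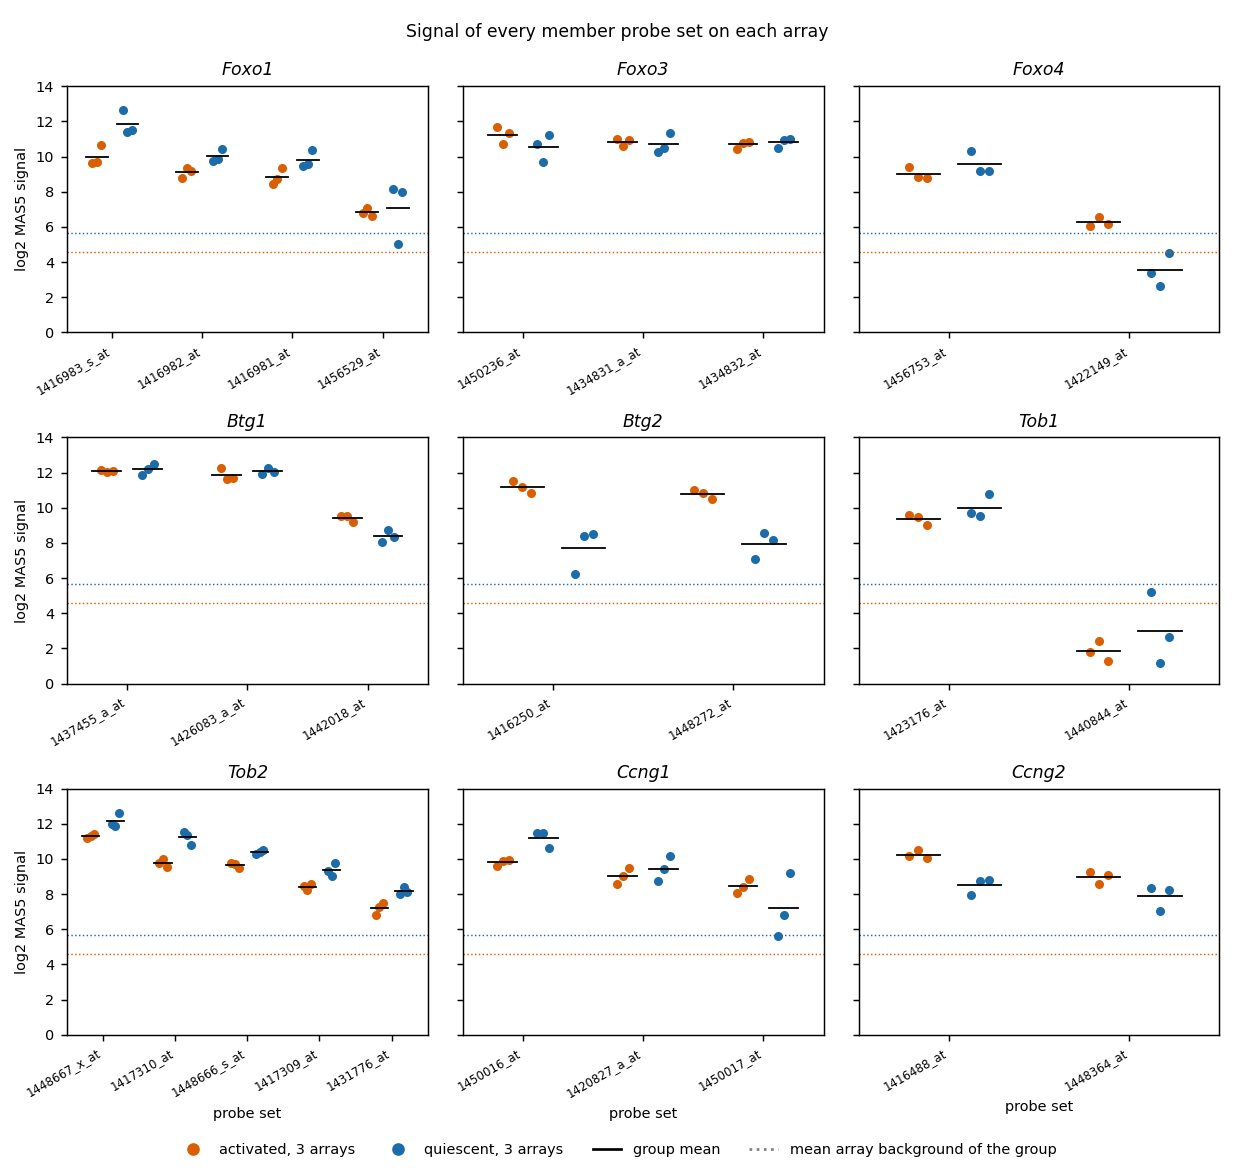
Log2 MAS5 signal (vertical axis) of each member probe set (horizontal axis), with activated arrays in orange left of quiescent arrays in blue, group means as black bars and dotted lines at the mean array background of each group. The 3 activated arrays lie above the 3 quiescent arrays at both Btg2 and both Ccng2 probe sets, and below them at all 5 Tob2 probe sets.

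Some array measures moved with the groups. The added hybridisation controls averaged 13.7 ± 0.045 on activated and 14.3 ± 0.53 on quiescent arrays (SD, n = 3 each; two-sided exact permutation p = 0.1, the smallest possible here), with the same p for the measures that follow. Background was 4.60 ± 0.074 on activated and 5.67 ± 0.37 on quiescent arrays. The 3′ minus 5′ Gapdh difference, a measure of RNA quality, was 1.37 ± 0.17 on activated and 2.05 ± 0.52 on quiescent arrays. Quiescent array 1 had the highest of each, at 14.94, 6.10 and 2.59. Without it the 5 members called were still called, at 2.73 for Btg2, 1.496 for Ccng2, -1.46 for Foxo1, -0.96 for Tob2 and -1.21 for Ccng1. The proliferation markers rose in 11 of 11 tested cases, and their summed log2 signal was 16.1 to 16.2 on activated and 12.4 to 13.7 on quiescent arrays. The sums of the other marker lists are given for activated against quiescent arrays. Neuroblast and young neuron markers rose in 6 of 10 cases (14.53 to 14.95 against 11.8 to 13.1). Quiescent stem cell and astrocyte markers fell in 15 of 15 (15.05 to 15.41 against 17.4 to 17.9). Mature oligodendrocyte markers fell in 10 of 10 (11.2 to 12.5 against 14.2 to 16.2), ependymal in 5 of 6 (9.29 to 9.73 against 12.3 to 12.8), endothelial in 3 of 4 (7.40 to 8.04 against 10.39 to 11.97) and pericyte markers in 4 of 5 (8.69 to 9.47 against 12.3 to 13.2). Microglia markers had 1 gene bright enough to test, which was not called, with sums of 7.21 to 7.55 against 8.76 to 9.23. Mature neuron markers rose in 1 of 4 cases, with sums of 10.8 to 11.7 against 10.1 to 11.0. Of the 10 oligodendrocyte markers, 0 to 3 were at background on an activated array and 0 on a quiescent array. Of the 9 pericyte markers, 3 to 4 were at background on an activated array and 0 to 4 on a quiescent array. Of the 9 microglia markers, 5 to 6 were at background on an activated array and 4 to 6 on a quiescent array. For the 10 endothelial markers these counts were 5 to 8 and 0 to 2, and for the 11 ependymal markers 3 to 4 and 1 to 3. The part of these cells and of the array measures in the member results was not tested, and fewer cells of a type cannot be told apart from less RNA per cell.

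Foxo1, the family member best known for insulin signalling, fell in activated cells. Its brightest probe set read 9.66, 9.67 and 10.66 on activated arrays, against 12.63, 11.39 and 11.53 on quiescent arrays. All 3 activated arrays were below all 3 quiescent ones, and activated array 3 was the highest of its group. Foxo1 fell by 1.85 ± 0.40, with a 95% confidence interval of -2.75 to -0.96 (adjusted p = 0.00559), which is a 3.61-fold decrease. Another 2 Foxo1 probe sets separated the groups in the same direction but did not pass, with differences of -0.93 ± 0.35 (adjusted p = 0.0641) and -0.93 ± 0.40 (adjusted p = 0.0983). The dimmest read 6.78, 7.10 and 6.61 on activated arrays, against 8.137, 5.004 and 8.001 on quiescent arrays, the second of these being at background, and differed by -0.22 ± 0.82. The Foxo1 call rests on its brightest probe set, whose name marks it as shared between transcripts: it was lost with the mean of the 4 probe sets (difference -0.98, adjusted p = 0.0559) and without such probe sets (-0.93, adjusted p = 0.0598).

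Foxo3, the family member studied most for neural stem cell maintenance, was not called. Its brightest probe set read 11.66, 10.73 and 11.37 on activated arrays, against 10.69, 9.68 and 11.23 on quiescent arrays. These groups overlapped, and quiescent array 2 was the lowest. The difference was 0.72 ± 0.41 with a 95% interval of -0.20 to 1.63 (adjusted p = 0.198), so that a 2-fold increase lies inside the interval. The other Foxo3 probe sets differed by 0.14 ± 0.33 and -0.12 ± 0.28. The brightest passed after scaling to array medians (1.27, adjusted p = 0.0251) or to hybridisation controls (1.36, adjusted p = 0.0437), and without quiescent array 3 (1.07, adjusted p = 0.0475 over genes and 0.0503 over probe sets). Without activated array 1 this probe set differed by 0.51 (adjusted p = 0.459 over probe sets), and another Foxo3 probe set was then the brightest.

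Foxo4 gave opposite readings at its pair of probe sets. The brighter read 9.39, 8.87 and 8.77 on activated arrays, against 10.29, 9.19 and 9.18 on quiescent arrays. The ranges overlapped through activated array 1, and the difference of -0.55 ± 0.41 did not pass (95% interval -1.46 to 0.37, adjusted p = 0.324). The dimmer, below the signal filter and so not tested, read 6.04, 6.56 and 6.18 on activated arrays, against 3.40, 2.67 and 4.54 on quiescent arrays, all 3 of which were at background. It was at least 1.51-fold higher in activated cells, a lower bound, used where the dimmer group has an array not above background, and taken against that background. With the mean of both probe sets the Foxo4 difference was 1.09 (adjusted p = 0.0837), the opposite sign.

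**Figure D2:**
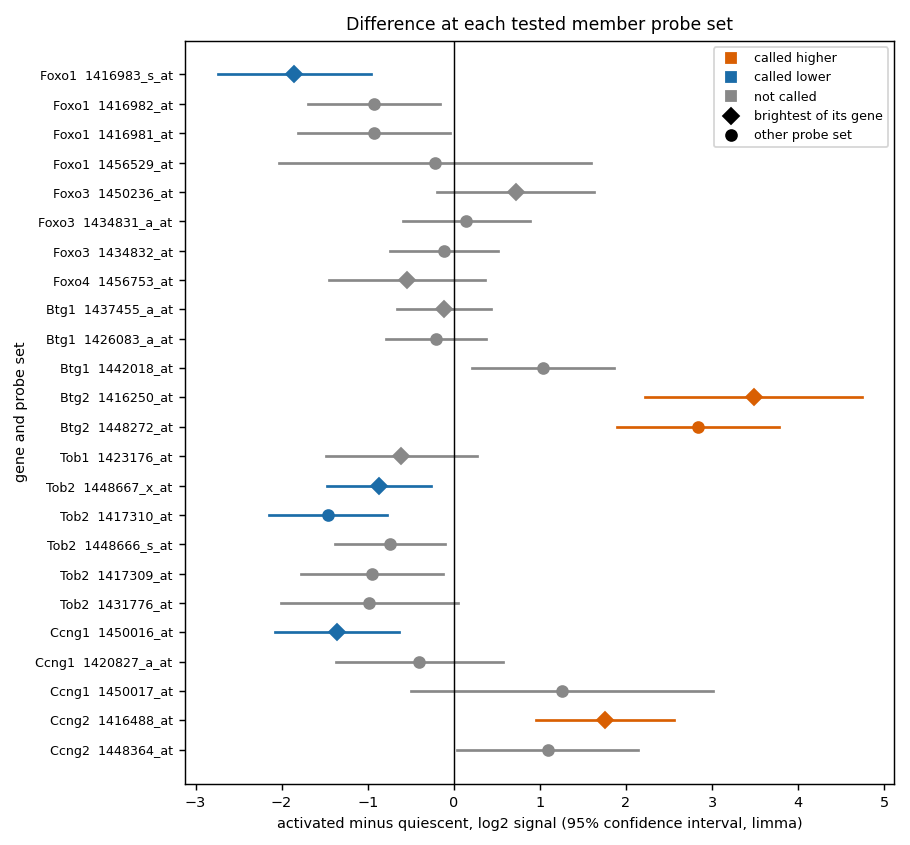
Activated minus quiescent difference in log2 signal (horizontal axis) with its 95% confidence interval for each of the 24 tested member probe sets (vertical axis), coloured by call, with diamonds for the brightest probe set of a gene. Both Btg2 intervals lie well above 0, all Tob2 points lie below 0, and the Ccng1 points lie on both sides of 0.

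The list of FoxO genes with PI3K, Akt, 14-3-3 and deacetylase genes had 24 tested genes, of which 4 rose and 2 fell. That is 25% called, against 34.9% of all tested genes. Without the 3 FoxO genes themselves, 4 of 21 rose and 1 fell. The differences of the 24 genes had a median of 0.15, against 0.01 over all tested genes. Sgk1, a kinase that like Akt phosphorylates FoxO factors, fell by 3.37 ± 0.82 (adjusted p = 0.00989), with 6.36 ± 0.42 on activated and 9.73 ± 1.96 on quiescent arrays (SD, n = 3 each). Mapk8, the stress kinase JNK1, was 2.07 ± 0.45 higher (adjusted p = 0.00555) but averaging its probe sets ended the call (adjusted p = 0.125). Skp2, an F-box protein that targets p27 and FOXO1 for destruction, was 1.70 ± 0.35 higher (adjusted p = 0.00436), and the 14-3-3 gene Ywhag 1.17 ± 0.31 higher (adjusted p = 0.0144, or 0.0577 without activated array 2). Akt1 differed by 1.14 ± 0.41 (adjusted p = 0.0546) and Akt2 by -0.03 ± 0.33 (adjusted p = 0.953), both named after their values were seen. The count includes Foxo1 and Sgk1 as the pair that fell. The counts were 10 higher and 2 lower after scaling to array medians, 11 and 2 after scaling to hybridisation controls, 2 higher without activated array 2, and 7 higher and 4 lower without quiescent array 3.

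FoxO target genes moved both ways. Of 27 tested targets, 12 fell and 4 rose, Ccng2 among the genes that rose. That is 59.3% called, against 34.9% of all tested genes, and no list was tested as a set. The median was -0.73, against 0.01 over all tested genes. Among those that fell were Ppargc1a, a coactivator of mitochondrial genes (fell by 1.95 ± 0.34, adjusted p = 0.00157), and Bcl6, a transcriptional repressor (fell by 1.88 ± 0.45, adjusted p = 0.00903, or 0.0739 after scaling to hybridisation controls). Aspa, an enzyme of N-acetylaspartate breakdown that also stands on the mature oligodendrocyte marker list, was at least 27.3-fold lower (adjusted p = 0.00113). Cited2, a transcriptional coregulator, was 3.41 ± 0.48 higher (adjusted p = 0.000462), reading 11.86, 11.88 and 11.16 on activated arrays, against 7.36, 9.29 and 8.03 on quiescent arrays. Cdkn1b, the CDK inhibitor p27, was not called at 0.72 ± 0.32 (adjusted p = 0.106), and Txnip, a thioredoxin inhibitor, was 1.77 ± 0.35 higher (adjusted p = 0.00349). Cdkn1b and Txnip were named after their values were seen. The split depended on scaling, with 6 higher and 6 lower after scaling to array medians and 6 higher and 3 lower after scaling to hybridisation controls.

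**Figure D3:**
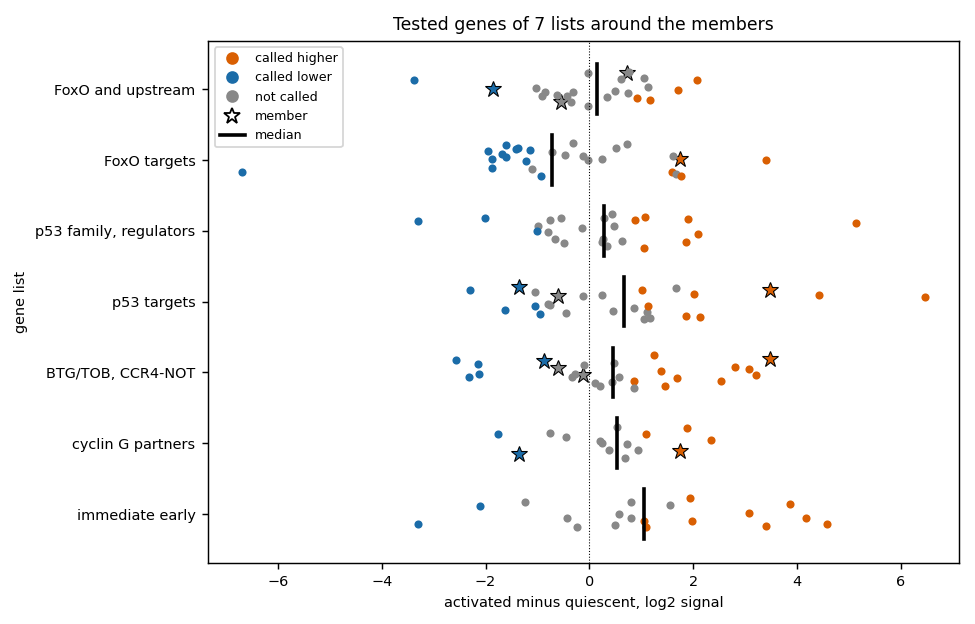
Activated minus quiescent difference in log2 signal (horizontal axis) of every tested gene in 7 gene lists (vertical axis), coloured by call, with stars for members and black bars for list medians. The FoxO target median lies at -0.73 and the immediate early median at 1.05, with genes on both sides of 0 in every list.

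Regulators of p53 were mixed. Of 24 tested genes, 7 rose and 3 fell, with a median of 0.28. That is 41.7% called, against 34.9% of all tested genes. Chek1, a checkpoint kinase that phosphorylates p53, was higher by at least 31.7-fold (adjusted p = 4.18e-05). Bmi1, a Polycomb repressor of the Cdkn2a locus, was 2.09 ± 0.31 higher (adjusted p = 0.000629). Trp63, a p53 relative, was lower by at least 8.07-fold (adjusted p = 0.012). Trp53bp2, which binds p53, fell by 2.01 ± 0.32 (adjusted p = 0.00106). Mdm2, the ubiquitin ligase that degrades p53 and is also its target, read 10.80, 11.31 and 11.38 on activated arrays, against 11.34, 11.10 and 10.31 on quiescent arrays. The groups overlapped and the difference was 0.25 ± 0.33 (adjusted p = 0.586). Leaving out any 1 activated array left 4 higher genes. Leaving out quiescent array 1 left 1 lower gene, and leaving out quiescent array 3 gave 8.

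Of 26 tested p53 targets, 8 rose and 5 fell, with a median of 0.66, and Btg2 and Ccng1 were on opposite sides. That is 50% called, against 34.9% of all tested genes. Gtse1, a G2 and mitosis protein that restrains p53, was at least 19.2-fold higher (adjusted p = 5.36e-05), Eda2r, a receptor of the TNF family, at least 5.55-fold (adjusted p = 0.00517), and Tigar, a regulator of sugar metabolism, 2.13 ± 0.50 higher (adjusted p = 0.0083). Perp, a membrane protein of cell junctions, fell by 2.31 ± 0.73 (adjusted p = 0.0318). Perp was not called after either scaling to array medians or to hybridisation controls, nor when any 1 array other than activated array 3 was left out. Cdkn1a, the CDK inhibitor p21, was not called, reading 8.97, 9.21 and 9.25 on activated arrays, against 5.85, 10.49 and 7.59 on quiescent arrays, where array 1 was at background and the values spanned those of activated cells (difference 1.17 ± 0.92, adjusted p = 0.342). Cdkn1a and Mdm2 were named after their values were seen. After scaling to array medians 12 targets rose and 0 fell, and after scaling to hybridisation controls 11 and 0, and without any 1 activated array 4 rose and 2 or 3 fell. Leaving out quiescent array 1 left 2 lower targets, and leaving out quiescent array 2 left 3.

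Btg2 had the largest difference of the members. The gene, an early response and p53 target gene that marks neurogenic divisions in the embryonic brain, read 11.53, 11.19 and 10.86 on activated arrays, against 6.21, 8.41 and 8.51 on quiescent arrays. Every activated array was above every quiescent array. Quiescent array 1 was the lowest, near its background of 6.10, and without it the difference was 2.73. Btg2 was 3.48 ± 0.57 higher (95% interval 2.21 to 4.75, adjusted p = 0.00117), which is 11.2-fold. Its further probe set read 10.98, 10.81 and 10.50 on activated arrays, against 7.09, 8.56 and 8.14 on quiescent arrays, and was 2.83 ± 0.42 higher (adjusted p = 0.000739). The call held in all 19 alternatives, with differences of 2.73 to 4.13.

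Btg1, the closest relative of Btg2, was bright and was not called. Its brightest probe set read 12.12, 12.02 and 12.07 on activated arrays, against 11.87, 12.18 and 12.51 on quiescent arrays. The activated values lay within the quiescent range, and the difference was -0.11 ± 0.25 with a 95% interval of -0.67 to 0.44 (adjusted p = 0.744). A dimmer Btg1 probe set read 9.52, 9.52 and 9.19 on activated arrays, against 8.07, 8.74 and 8.32 on quiescent arrays. It separated the groups and differed by 1.03 ± 0.37 (adjusted p = 0.0553), and it passed after scaling to array medians (1.59, adjusted p = 0.00947) or to hybridisation controls (1.68, adjusted p = 0.0331), after quantile normalization (1.13, adjusted p = 0.0445) and with the 60th percentile filter (adjusted p = 0.048). The Btg2 minus Btg1 difference of differences was 3.60 ± 0.63 and the per-array ratios did not overlap (two-sided exact permutation p = 0.1, the smallest that 3 arrays against 3 can give, adjusted to 0.15 over the 6 paralog pairs compared).

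The array pattern of Btg2 was set beside that of immediate early genes, which cells switch on within minutes of a stimulus. Of 19 tested, 9 rose and 2 fell, with a median of 1.05. That is 57.9% called, against 34.9% of all tested genes. Fos, a subunit of AP-1, read 12.77, 12.89 and 11.79 on activated arrays, against 6.52, 8.22 and 8.97 on quiescent arrays, and was 4.58 ± 0.57 higher (adjusted p = 0.000236). For Fos, as for Btg2, quiescent array 1 was the lowest of all and activated array 3 the lowest of its group. This order was not particular to these genes, since Egr1, Ccng2, Cited2, Skp2 and Mapk8 had it too. The lowest array was quiescent array 3 for Ier2 and quiescent array 2 for Socs3. The zinc finger factor Egr1 was 3.87 ± 0.29 higher (adjusted p = 3.26e-05). Ier2, a nuclear protein induced early by growth factors, was higher by at least 6.30-fold (adjusted p = 0.0167), as was Socs3, a feedback inhibitor of cytokine signalling, at least 7.56-fold (adjusted p = 0.0146). Ier2 did not pass when activated array 1 (adjusted p = 0.061) or 2 (adjusted p = 0.0641) was left out, nor did Socs3 when activated array 2 was (adjusted p = 0.0501). In contrast, the matricellular gene Ccn1 fell by 3.29 ± 0.67 (adjusted p = 0.00395) and Zfp36, which destabilises AU-rich mRNAs, fell by 2.10 ± 0.47 (adjusted p = 0.00627). Leaving out activated array 1 left 5 that rose, and leaving out activated array 2 left 4.

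**Figure D4:**
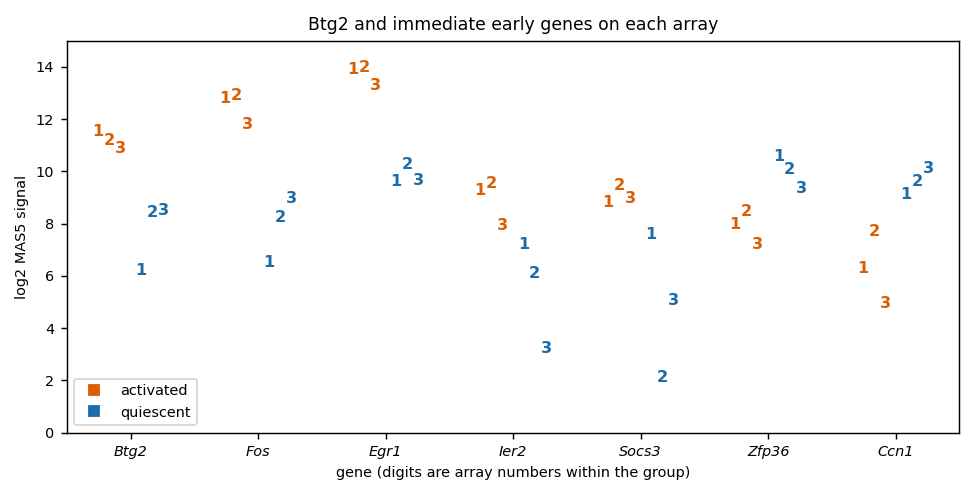
Log2 MAS5 signal (vertical axis) of Btg2 and 6 immediate early genes (horizontal axis), with each array drawn as its number, activated in orange left of quiescent in blue. Btg2, Fos, Egr1, Ier2 and Socs3 are higher on every activated array than on any quiescent array, while Zfp36 and Ccn1 are lower.

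Tob2 fell and Tob1 was not called. Tob2 was measured by 5 probe sets, and at each of them the 3 activated arrays were below the 3 quiescent ones. The brightest read 11.20, 11.28 and 11.44 on activated arrays, against 12.003, 11.89 and 12.63 on quiescent arrays, and fell by 0.87 ± 0.27 (95% interval -1.47 to -0.27, adjusted p = 0.0305). A second, which read 9.765, 9.996 and 9.528 on activated arrays, against 11.53, 11.37 and 10.78 on quiescent arrays, fell by 1.46 ± 0.31 (adjusted p = 0.0051), a 2.76-fold decrease. The remaining 3 differed by -0.98 to -0.74 and did not pass. The brightest is of a type that may bind other transcripts, and without such probe sets Tob2 was called at -1.46 (adjusted p = 0.00433). The second probe set was not called after scaling to array medians (-0.91, adjusted p = 0.0851) or hybridisation controls (-0.82, adjusted p = 0.146). The call of the brightest was likewise lost after scaling to array medians (-0.32, adjusted p = 0.473) or hybridisation controls (-0.23, adjusted p = 0.692), without the variance trend (adjusted p = 0.0783) and without any 1 activated array (adjusted p = 0.0686 to 0.0961).

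Tob1, which like Tob2 binds the deadenylase through its BTG domain, read 9.59, 9.49 and 9.04 on activated arrays, against 9.67, 9.51 and 10.75 on quiescent arrays. The groups overlapped, with quiescent array 3 well above the others, and the difference was -0.61 ± 0.40 (95% interval -1.49 to 0.27, adjusted p = 0.254). Its dimmer probe set was at background on all 6 arrays. The Tob2 minus Tob1 difference was smaller than its SE, at -0.26 ± 0.29 (two-sided exact permutation p = 0.4, adjusted p = 0.4).

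Partners of BTG and TOB proteins moved both ways. Of 26 tested genes of the BTG/TOB family, the CCR4-NOT complex and their partners, 10 rose and 5 fell, Btg2 and Tob2 among them. The median was 0.45, and 57.7% were called, against 34.9% of all tested genes. Pabpc1, a cytoplasmic poly(A)-binding protein, was 3.20 ± 0.32 higher (adjusted p = 7.86e-05), and its relative Pabpc4 2.81 ± 0.41 (adjusted p = 0.000587). Prmt1, an arginine methyltransferase that binds BTG1 and BTG2, was 3.07 ± 0.32 higher (adjusted p = 0.000103). The catalytic deadenylase subunit Cnot7, named after its values were seen, was 0.85 ± 0.26 higher (adjusted p = 0.0277). The CPEB genes, whose products bind control elements in mRNAs and set tail length, went the other way, Cpeb1 falling by 2.56 ± 0.67 (adjusted p = 0.0139, or 0.0822 after scaling to hybridisation controls). Cpeb2, Cpeb3 and Cpeb4, also named afterwards, fell by 2.15 ± 0.43, 2.33 ± 0.50 and 2.12 ± 0.39 (adjusted p = 0.00352, 0.00519 and 0.00232). After scaling to array medians 11 rose and 4 fell, and after scaling to hybridisation controls 11 and 1. With the control scaling at most 1 of the CPEB genes therefore kept its call, so their falls depended on the scaling.

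The G-type cyclins moved in opposite directions at their brightest probe sets. Ccng2 read 10.17, 10.50 and 10.07 on activated arrays, against 7.98, 8.72 and 8.78 on quiescent arrays. The groups did not overlap, and Ccng2 was 1.75 ± 0.36 higher (95% interval 0.95 to 2.56, adjusted p = 0.00432), which is 3.37-fold. Its dimmer probe set, at 9.26, 8.59 and 9.11 on activated arrays, against 8.38, 7.05 and 8.26 on quiescent arrays, separated the groups too but did not pass (1.09 ± 0.48, adjusted p = 0.104). The Ccng2 call held in all 19 alternatives, with differences of 1.42 to 2.40.

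Ccng1 read 9.61, 9.91 and 9.97 on activated arrays, against 11.49, 11.48 and 10.60 on quiescent arrays, and fell by 1.36 ± 0.33 (95% interval -2.08 to -0.63, adjusted p = 0.00915). The groups did not overlap at this probe set. A second differed by -0.40 ± 0.44 (adjusted p = 0.511), and the third had the opposite sign at 1.26 ± 0.79 (adjusted p = 0.247), reading 8.08, 8.43 and 8.84 on activated arrays, against 5.60, 6.79 and 9.20 on quiescent arrays. The first of these quiescent values was at background. The Ccng1 call was lost with the mean of the 3 probe sets (-0.17, adjusted p = 0.759), after scaling to array medians (-0.80, adjusted p = 0.13) and to hybridisation controls (-0.71, adjusted p = 0.201). Without quiescent array 3 the third probe set was called higher (2.26, adjusted p = 0.013). The Ccng2 minus Ccng1 difference was 3.11 ± 0.51, with per-array ratios that did not overlap (two-sided exact permutation p = 0.1, adjusted p = 0.15).

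Among the PP2A and other partners of cyclins G, 15 genes were tested, 4 of which rose and 2 fell, Ccng2 and Ccng1 among them. The median was 0.54, and 40% were called, against 34.9% of all tested genes. The B56 subunits of PP2A, which bind cyclins G, were split. Ppp2r5d was 2.34 ± 0.57 higher (adjusted p = 0.00964), Ppp2r5e 1.88 ± 0.42 higher (adjusted p = 0.00648) and Ppp2r5c 1.08 ± 0.30 higher (adjusted p = 0.0174), while Ppp2r5a fell by 1.77 ± 0.26 (adjusted p = 0.00066). From the mean of their probe sets Ppp2r5c (adjusted p = 0.809) and Ppp2r5a (adjusted p = 0.0695) were not called, and 3 genes of the list rose and 0 fell. Ppp2r5c was also not called without activated array 2 (adjusted p = 0.0878). Scaling to array medians gave 8 higher and 1 lower, and scaling to hybridisation controls 6 and 0. Ppp2r5a was then at adjusted p = 0.051.

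Within the FoxO family, Foxo1 and Foxo3 differed by -2.57 ± 0.64 in their group differences (Foxo1 minus Foxo3), and Foxo1 and Foxo4 by -1.31 ± 0.48, with non-overlapping per-array ratios (two-sided exact permutation p = 0.1 each, adjusted p = 0.15). Foxo3 minus Foxo4 was 1.26 ± 0.58 with overlapping ratios (two-sided exact permutation p = 0.2, adjusted p = 0.24). No pair could pass at 3 arrays against 3. Each contrast took only the brightest probe set of a gene, which for Foxo1 and Foxo3 had the largest difference of its gene. The other Foxo1 probe sets differed by -0.93, -0.93 and -0.22 and the other Foxo3 probe sets by 0.14 and -0.12. The dimmer Foxo4 probe set had the opposite sign.

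The choice of scaling moved all members together. Scaling to array medians moved the median difference of all tested genes to 0.57, against 0.01 as deposited, and scaling to hybridisation controls moved it to 0.66. Under both scalings 3 members rose (Btg2, Ccng2 and Foxo3) and 1 fell (Foxo1), each at its brightest probe set. No other Foxo3 or Foxo1 probe set was called under either scaling. The third Foxo3 probe set was at 0.44 (adjusted p = 0.335) with array medians and 0.53 (adjusted p = 0.409) with hybridisation controls.

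**Figure D5:**
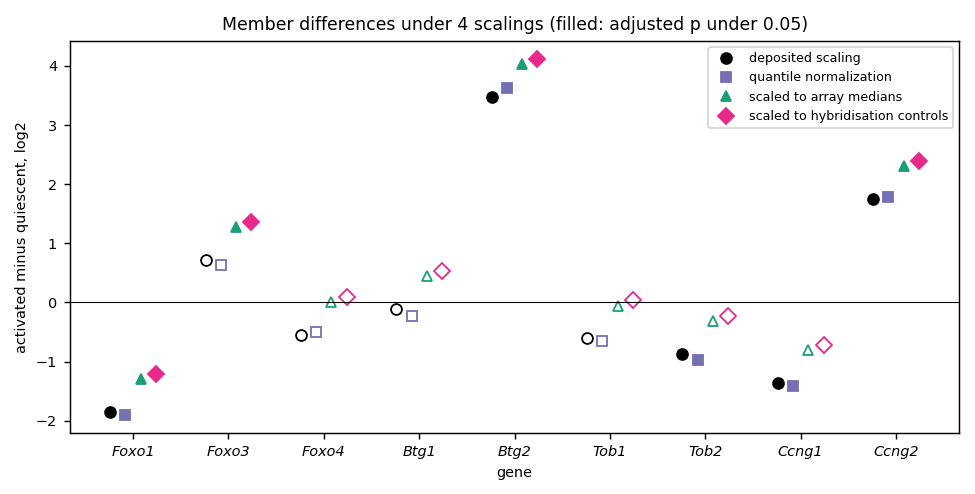
Activated minus quiescent difference in log2 signal (vertical axis) of the 9 measured genes (horizontal axis) under 4 scalings, with filled symbols for an adjusted p under 0.05. Btg2 and Ccng2 are called higher and Foxo1 lower under each of the 4, while the Tob2 and Ccng1 calls are lost under 2 of them.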

How the data were processed

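Expression in sorted cells was measured with 6 one-colour Affymetrix arrays, 3 for each population, grouped by sample titles. RNA was extracted with a miRNeasy kit, amplified with a Nugen Pico kit and labelled with biotin, per the labels' protocols. The deposited values are log2 signals that the authors made with MAS5, per the submitters' processing notes. Its version is not given in the sources used here, and detection calls were not used here. On the linear scale the 2% trimmed mean was 500.0 on every array, so totals per cell are not measured.

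Of 45101 probe sets, 64 controls were left out, and the platform annotation gave 1 gene for 34945, several for 932 and no gene for 9160. Symbols were updated by Entrez identifier through RefSeq (99.4% found, assembly GRCm38.p6, used for names and promoters). The brightest probe set stood for a gene, and genes whose mean was under the 40th percentile (6.02) were left out. Because the values were already log2, no pseudocount was added. The 2 groups were tested by lmFit and eBayes (trend on) in limma 3.58.1 (R 4.3.3), with Benjamini-Hochberg adjustment over all 11576 genes or all 22608 probe sets and calls under 0.05. Background was the 95th percentile of 27 bacterial control probe sets, and a fold is given as a lower bound when the lower group had an array not above it. The 18 hybridisation control probe sets served as an alternative scaling. Calculations were tested on simulated data. Figures were drawn with matplotlib 3.10.9.

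The members and lists were chosen with earlier results of these data known. From each pathway list the text names up to 4 called genes outside the members with the largest absolute difference and no overlap of arrays, plus up to 2 of the other direction, and others are marked as named after their values were seen. Alternatives were other scalings, filters, pseudocounts of 16 and 64, probe set rules, variance models, a block for replicate number, and leaving out each array. The sample titles do not say whether arrays with the same replicate number were paired, and the main fit left them unpaired. Deviations of same-numbered arrays correlated at 0.06, -0.02 and 0.03 over genes, against -0.08 to 0.05 for other pairs. With 3 arrays in a group these values cannot settle whether the arrays were paired.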

Additional observations from a re-analysis of the deposited data

How the results depend on the processing

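Over 9 genes and 19 alternatives each, 149 member differences kept their direction and their side of the threshold, and the Btg2 and Ccng2 calls held in all 19 alternatives. With the mean of probe sets 1 member fell, and Foxo1 (-0.98), Foxo4 (1.09), Btg1 (0.24) and Ccng1 (-0.17) changed call or sign. Without cross-hybridising probe sets Foxo1 was at -0.93. After scaling to array medians 3527 genes rose, 1191 fell and 1 member fell, with Foxo3 at 1.27, Foxo4 at 0.0072, Btg1 at 0.44, Tob2 at -0.32 and Ccng1 at -0.80. After scaling to hybridisation controls 3059 rose, 943 fell and 1 member fell, with Foxo3 at 1.36, Foxo4 at 0.10, Btg1 at 0.53, Tob1 at 0.035, Tob2 at -0.23 and Ccng1 at -0.71. Each of these scalings adds a constant to all differences. Without the variance trend Tob2 (-0.87) was not called. With 1 array left out, the higher count over all genes ranged from 1291 (without activated array 2) to 2453, Foxo3 from 0.0042 to 1.07 (0.29 to 1.07 at the same probe set, since without activated array 1 the third probe set was the brightest), Btg1 from -0.27 to 0.045 and Tob2 from -1.01 to -0.64. Single probe sets that were not called changed sign too. Under the median and control scalings the second Ccng1 probe set was at 0.15 and 0.24, the second Btg1 at 0.34 and 0.43, the third Foxo3 at 0.44 and 0.53 and the dimmest Foxo1 at 0.34 and 0.43 (0.26 after quantile normalization). With 1 array left out the third Foxo3 probe set ranged from -0.28 to 0.0042, the dimmest Foxo1 from -1.24 to 0.33 and the second Foxo3 from -0.080 to 0.47. Without the filter on dim genes the median of the upstream FoxO list was -0.031. The cause was not tested where no reason is given. The replicate block moved the counts over all genes to 1955 higher and 1979 lower, kept 2 members higher and 3 lower, and left Btg2 at 3.48. Detection calls were not used, so levels near background are limited by the control probe sets.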

Other observations

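The probe set paired with both Foxo3 and Gm38485 read 5.70, 4.95 and 7.77 on activated arrays, against 6.42, 6.35 and 7.17 on quiescent arrays. The groups overlapped, and it entered no comparison.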
